A study of Mus musculus with 6 samples.

Results

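The proteasome subunit genes were examined in precursors of the platelet-forming megakaryocytes, with and without deletion of the gene of the transcription factor SCL. The members are all probes of an Illumina mouse bead array whose annotated symbol starts with Psma, Psmb, Psmc, Psmd, Psme, Psmf or Psmg followed by a number. The array held 80 such probes for 49 gene symbols among 46632 probes, and 59 of them, for 41 symbols, had a detection p under 0.05 on 3 or more of the 6 arrays and were kept, among 16122 kept probes in all. The symbols Psmc3ip, a meiotic recombination cofactor gene, and Psme3ip1, whose protein binds the activator encoded by Psme3, match the letters but are no subunits of the proteasome. They are given apart from the subunit genes.

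Total RNA came from bone marrow megakaryocyte progenitors sorted from mice of 3 to 4 months and of the strain mix 129SVxC57Bl/6. All mice carried a Pf4-Cre transgene (TGPF4-CRE), which expresses Cre recombinase from a promoter of the megakaryocyte lineage. There were 3 arrays of control mice, SCL wt/wt (titled TG +/+ and called wild-type here), and 3 arrays of SCL fl/fl mice (titled TG fl/fl and called Scl-deleted here), in which the design describes complete excision of Scl, the gene also named Tal1. No label tells whether a sample is 1 animal or a pool, or whether samples of a group are independent, so a p reflects only how far these samples spread, in part perhaps for technical reasons. With 3 arrays in each group, precision is limited throughout.

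The proteasome is the large protease that breaks down proteins tagged with ubiquitin. Its barrel-shaped core has outer rings of alpha subunits (Psma genes) and inner rings of beta subunits (Psmb genes), and the proteolytic sites lie on the beta subunits encoded by Psmb5, Psmb6 and Psmb7. A cap made of a base and a lid (Psmc and Psmd genes) recognises, unfolds and feeds in the substrate. In blood and immune cells, and in most cells after exposure to interferon gamma, the catalytic subunits can be replaced during assembly by those of the immunoproteasome, encoded by Psmb8, Psmb9 and Psmb10, which take the places of the products of Psmb5, Psmb6 and Psmb7. Megakaryocytes and platelets contain proteasomes, and drugs that inhibit the proteasome lower platelet counts in patients.

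The start regions of Psmb9 and Psmb6, which encode exchangeable catalytic subunits, are shown because the comparison of the immunoproteasome with the constitutive core turns on such pairs. Each is the RefSeq sequence of assembly GRCm38.p6 from 250 bases before to 50 bases after the annotated start, 5′ to 3′ on the strand of the gene. The window of Psmb9 lies at chr17:34187281-34187580 on the minus strand and that of Psmb6 at chr11:70525107-70525406 on the plus strand. In the Psmb9 window the capitals mark the 225 bases between the start of Psmb9 and the start of Tap1, which is read in the opposite direction from the same region. In the Psmb6 window they mark a match to TGACNNNGC, the core of the antioxidant response element.
Psmb9: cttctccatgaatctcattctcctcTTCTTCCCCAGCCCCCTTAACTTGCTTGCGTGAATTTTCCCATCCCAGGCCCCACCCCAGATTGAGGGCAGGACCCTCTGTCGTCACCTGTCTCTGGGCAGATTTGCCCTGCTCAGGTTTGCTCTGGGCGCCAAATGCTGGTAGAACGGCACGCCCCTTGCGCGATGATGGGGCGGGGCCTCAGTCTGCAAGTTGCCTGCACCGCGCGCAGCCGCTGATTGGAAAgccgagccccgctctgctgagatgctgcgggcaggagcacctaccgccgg
Psmb6: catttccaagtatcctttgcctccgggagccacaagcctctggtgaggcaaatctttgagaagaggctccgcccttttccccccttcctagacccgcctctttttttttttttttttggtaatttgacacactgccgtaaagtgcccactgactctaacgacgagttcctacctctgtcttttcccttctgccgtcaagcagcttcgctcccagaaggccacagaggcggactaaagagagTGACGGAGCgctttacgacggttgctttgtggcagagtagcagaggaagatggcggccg

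The motifs were searched on both strands in the windows of 40 of the 47 subunit genes on the array that had one, 32 of them with a kept probe. A match to TGACNNNGC stood in 5 of these 32 genes, among them Psmb5 and Psmb6, against 14% of the 27025 genes with a window in the table. The interferon-stimulated element, searched as GAAA, any 2 bases and GAAA, stood in 4 of 32, Psmb3, Psmd4, Psmd9 and Psme1, against 3.99%. The element AGATAA, which GATA factors bind, stood in 2 of 32, Psmd9 and Psmf1, against 12.7%, and the E-box CANNTG, the kind of site that SCL binds with its partners, in 19 of 32 against 75%. Of the immunoproteasome genes, Psmb9 and Psmb10 held an E-box, and the interferon-stimulated element was in 0 of 3 windows. The letters CANNTG read the same on both strands. A match is a description of these letters and not a binding site.

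The arrays were first checked for the target and for arrays that stood apart. Tal1 lay at a log2 intensity of 12.83, 13.28 and 13.29 on wild-type arrays 1, 2 and 3 and at 11.22, 9.80 and 11.47 on Scl-deleted arrays 1, 2 and 3, a log2 difference of -2.30 (limma adjusted p = 0.0589 over all kept probes, and 0.0352 when each gene was tested by 1 probe). On the Scl-deleted arrays Tal1 stayed above the lowest detected signals of these arrays, 5.27, 5.40 and 5.35. No source used here gives the position of its probe relative to the deleted part. Xist, the transcript of the inactive X chromosome, lay at 10.53, 10.89 and 9.13 on the wild-type arrays and at 5.21, 5.80 and 10.52 on the Scl-deleted arrays, so Scl-deleted arrays 1 and 2 stood apart. Xist is expressed in female cells, and the labels give no sex, so sex may have been unbalanced between the groups. It was not separated from genotype in the main fit. A fit with Xist as a covariate can do so only weakly. It rests mainly on Scl-deleted array 3, the only array of its group with Xist as high as in wild-type. Of the genes below, Psmd10 lies on the X chromosome. Wild-type array 3 also stood apart, since 896 probes passed without it against 73 with it. Of the 9 megakaryocyte markers on the array all 9 were kept. Their summed linear intensity ran from 40800 to 49300 on wild-type and from 36800 to 45000 on Scl-deleted arrays. Single markers went both ways, and none passed the limma test after adjustment. Vwf and Treml1 had log2 differences of -0.43 and -0.28 without overlap, where 18.0% of all kept probes did not overlap. With overlap, Itgb3, Pf4 and Cd9 had -0.69, -0.07 and -0.01. Gp1bb, Gp9 and Gata1 had 0.60, 0.35 and 0.27, also with overlap. Itga2b had 1.13, at 10.29, 10.36 and 12.37 on wild-type and at 12.28, 12.28 and 11.84 on Scl-deleted arrays.

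No proteasome gene passed the adjusted threshold between the genotypes. Of the 59 kept probes 0 passed an adjusted p of 0.05 in limma's test, where 0.453% of all kept probes passed (0.329% upward and 0.124% downward after deletion), and 3 had an unadjusted p under 0.05, where 14.6% of all kept probes did. These 3 were probes of Psmd2, Psmd9 and Psmb9, and that of Psmd2 was kept only through its detection in wild-type cells. The 95% intervals of the 3 leave out 0 by construction, since they come from the same fit as the p. Of the other settings run, array weights called 3 members and 7.01% of all kept probes, and leaving out wild-type array 3 called 2 members and 5.56% of all. Both counts include Psmd2, a probe kept only through its detection in wild-type cells. Scl-deleted means were above wild-type means for 31 probes and below for 28. The median log2 difference (Scl-deleted minus wild-type) was 0.04, against 0.01 over all kept probes. The median standard error of a member was 0.15, against 0.17 over all kept probes, and the median size of the difference regardless of sign was 0.15 against 0.17. In bulk RNA of sorted cells, a change per cell and a change in the share of cells with that RNA cannot be told apart. Groups did not overlap in 10 of the 59 probes, with Scl-deleted cells above in 5 and below in 5, against 18.0% of all kept probes in either direction, 9.40% higher and 8.62% lower.

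The intervals of the differences give the size of change that these arrays leave possible. Taken one probe at a time, the 95% interval lay inside a 1.5-fold difference either way (0.58 on the log2 scale) for 40 of the 59 probes, against 52.9% of all kept probes. Above a mean log2 intensity of 10, where the standard errors are smaller, it did so for 34 of 38 members and 73.8% of all kept probes of that brightness. At or below 10 it did so for 6 of 21 members, or 28.6%, against 48.5% of all kept probes of that brightness. Of the 59 members 2, Psmd2 and Psmd5, had a difference above 1.5-fold (3.39%, against 8.08% of all kept probes). Both have dim probes, and both lay under 1.5-fold without background correction and with the authors' normalized values.

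**Figure D1:**
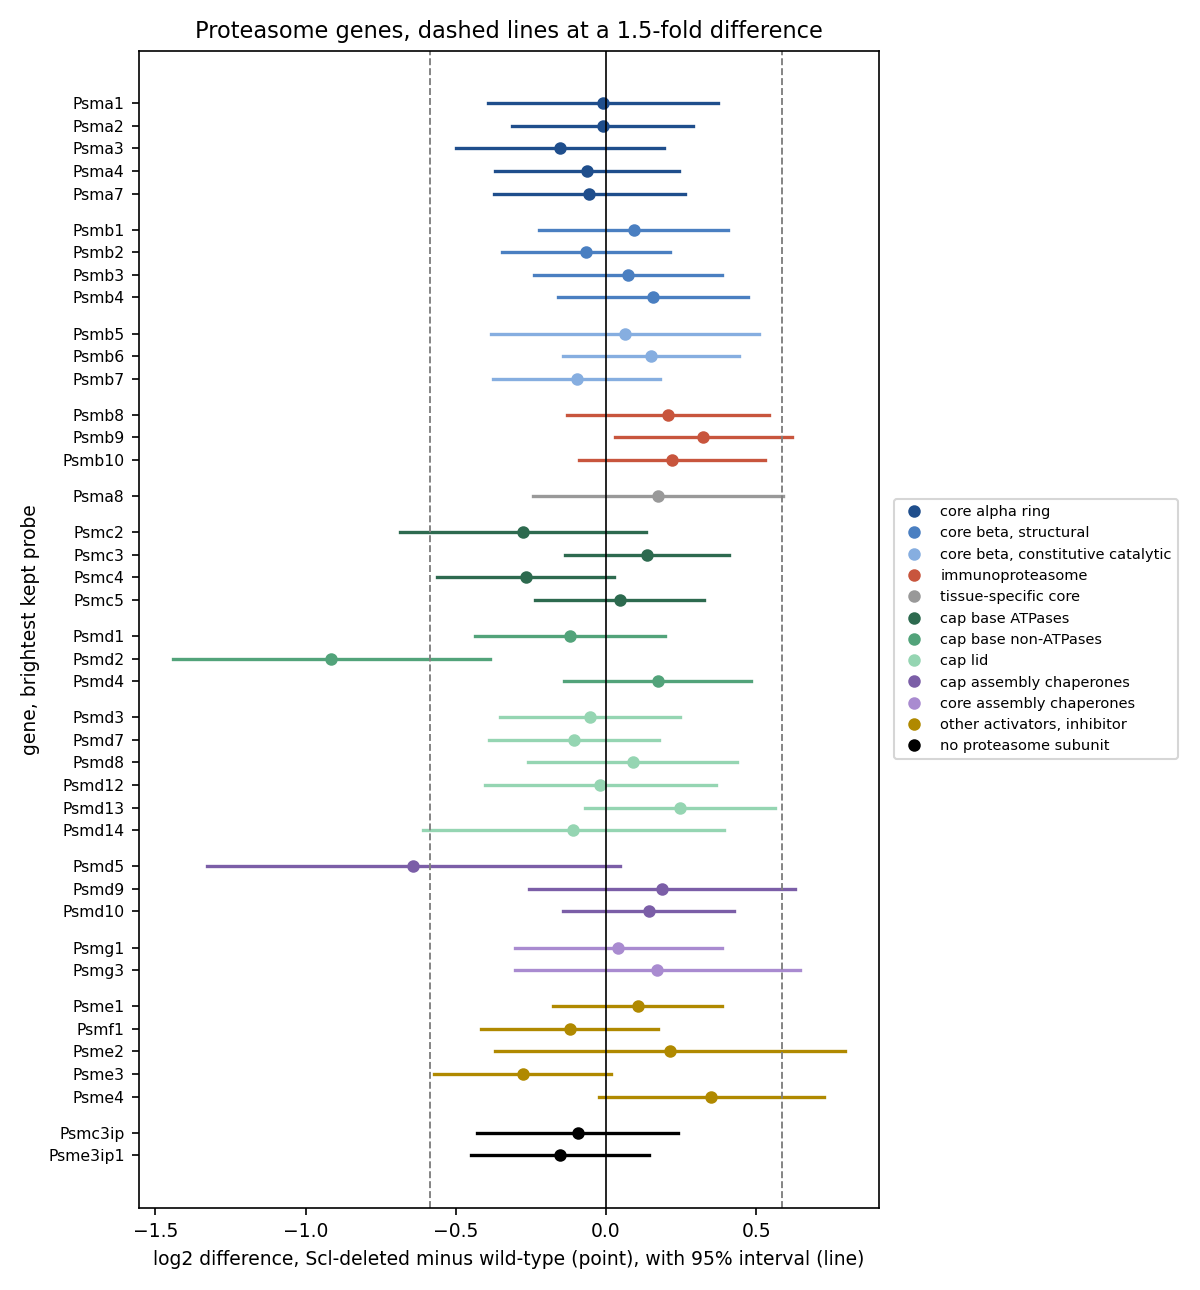
Log2 difference between Scl-deleted and wild-type arrays (horizontal axis) of the brightest kept probe of each of the 41 genes (vertical axis, grouped and coloured by role), with its 95% interval from limma as a line and dashed lines at 1.5-fold. The 12 genes of the core lie between -0.15 and 0.16, and the value farthest from 0 is that of Psmd2, at -0.91.

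**Figure D2:**
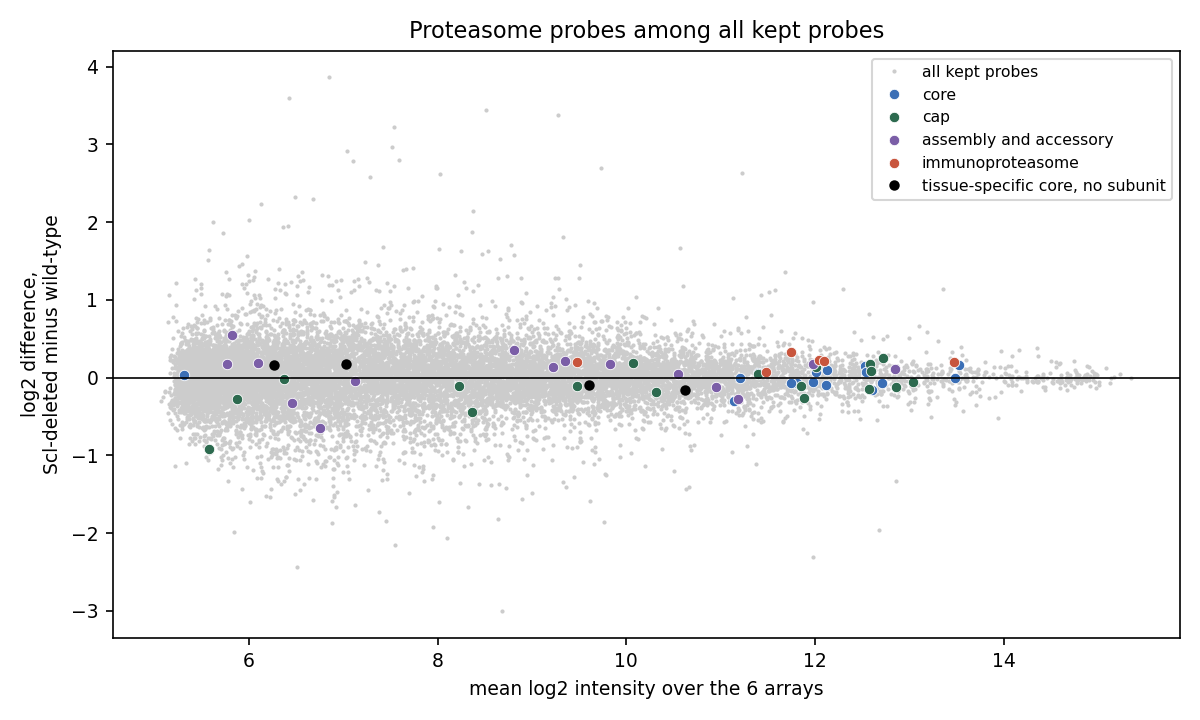
Log2 difference (vertical axis) against the mean log2 intensity over the 6 arrays (horizontal axis) of the 16122 kept probes in grey and the 59 members in colour. The members follow the band of all probes, which narrows with brightness, and all 6 immunoproteasome probes lie above 0, between 0.07 and 0.32.

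The alpha ring genes form the gate and frame of the core. Of the 7 genes on the array 5 had a kept probe, and their log2 differences ran from -0.15 for Psma3 to -0.01 for Psma1 and Psma2. Psma2 lay at 13.47, 13.59 and 13.41 on the wild-type arrays and at 13.50, 13.37 and 13.57 on the Scl-deleted arrays. The groups overlapped, and the 95% interval of its difference ran from -0.31 to 0.29. Psma3 had the values 12.81, 12.68 and 12.53 against 12.67, 12.32 and 12.58, with an interval from -0.50 to 0.19. The groups of Psma1, Psma4 and Psma7 also overlapped, and their differences were -0.01, -0.06 and -0.06. The probes of Psma5 and Psma6 were not above background on any array.

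Of the beta ring genes without a proteolytic site, Psmb1 to Psmb4, all 4 were kept, and the differences of their brightest probes ran from -0.07 for Psmb2 to 0.16 for Psmb4. Psmb4 had the values 13.37, 13.36 and 13.64 on wild-type and 13.53, 13.64 and 13.66 on Scl-deleted arrays, and wild-type array 3 lay among the Scl-deleted arrays. Psmb1 lay between 12.05 and 12.11 in wild-type and between 11.99 and 12.33 in Scl-deleted cells, so that the Scl-deleted arrays spread on both sides of the controls. The intervals of all 12 core genes, these 4, the 5 of the alpha ring and the 3 constitutive catalytic ones, lay inside 1.5-fold by their brightest probes.

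The constitutive catalytic subunits showed small differences of both signs. Psmb5, which carries the chymotrypsin-like site that proteasome inhibitor drugs bind, lay at 11.37, 11.07 and 11.64 on wild-type and at 11.33, 11.71 and 11.24 on Scl-deleted arrays. Its log2 difference was 0.06 ± 0.19 (SE, n = 3 each; limma adjusted p = 0.913), and the groups overlapped along most of their range. Psmb6, with the caspase-like site, lay at 12.47, 12.34 and 12.56 against 12.56, 12.64 and 12.62. All 3 Scl-deleted arrays were above the wild-type ones by a narrow margin, and the difference was 0.15 ± 0.13 (SE; adjusted p = 0.622). Psmb7, with the trypsin-like site, lay at 12.22, 12.12 and 12.16 against 12.08, 12.11 and 12.03 by its brightest probe, a difference of -0.10 ± 0.12 (SE; adjusted p = 0.747) without overlap. Its other kept probes were at -0.06 and -0.29. The probe at -0.29 was among the 8 members with the smallest p, with 11.29 on all 3 wild-type arrays and 11.14, 11.07 and 10.78 on the Scl-deleted arrays (adjusted p = 0.379).

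The 3 immunoproteasome genes had positive differences on all 6 of their kept probes, from 0.07 to 0.32, and none passed the test. Psmb9 had the smallest p among them. It lay at 11.54, 11.50 and 11.70 on wild-type and at 11.85, 11.90 and 11.97 on Scl-deleted arrays, and the groups did not overlap. The log2 difference was 0.32 ± 0.13 (SE, n = 3 each), or 1.25-fold, with an unadjusted p of 0.0347 and an adjusted p of 0.309 in limma, and a 95% interval from 0.03 to 0.62. It was 0.32 with the authors' normalized values as well, and its adjusted p ran from 0.0757 to 0.722 over the other settings.

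Psmb8, by its brightest probe, lay at 13.23, 13.31 and 13.56 on wild-type and at 13.46, 13.56 and 13.70 on Scl-deleted arrays. Wild-type array 3 lay among the Scl-deleted arrays, and the difference was 0.21 ± 0.15 (SE; limma adjusted p = 0.545). Its dimmer probes gave 0.21 and 0.20, close to the brightest one. Psmb10 lay at 11.90, 11.89 and 12.01 against 12.00, 12.17 and 12.29, with Scl-deleted array 1 just below the highest wild-type array. Its difference was 0.22 ± 0.14 (SE; adjusted p = 0.483), and the dimmer probe gave 0.07.

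**Figure D3:**
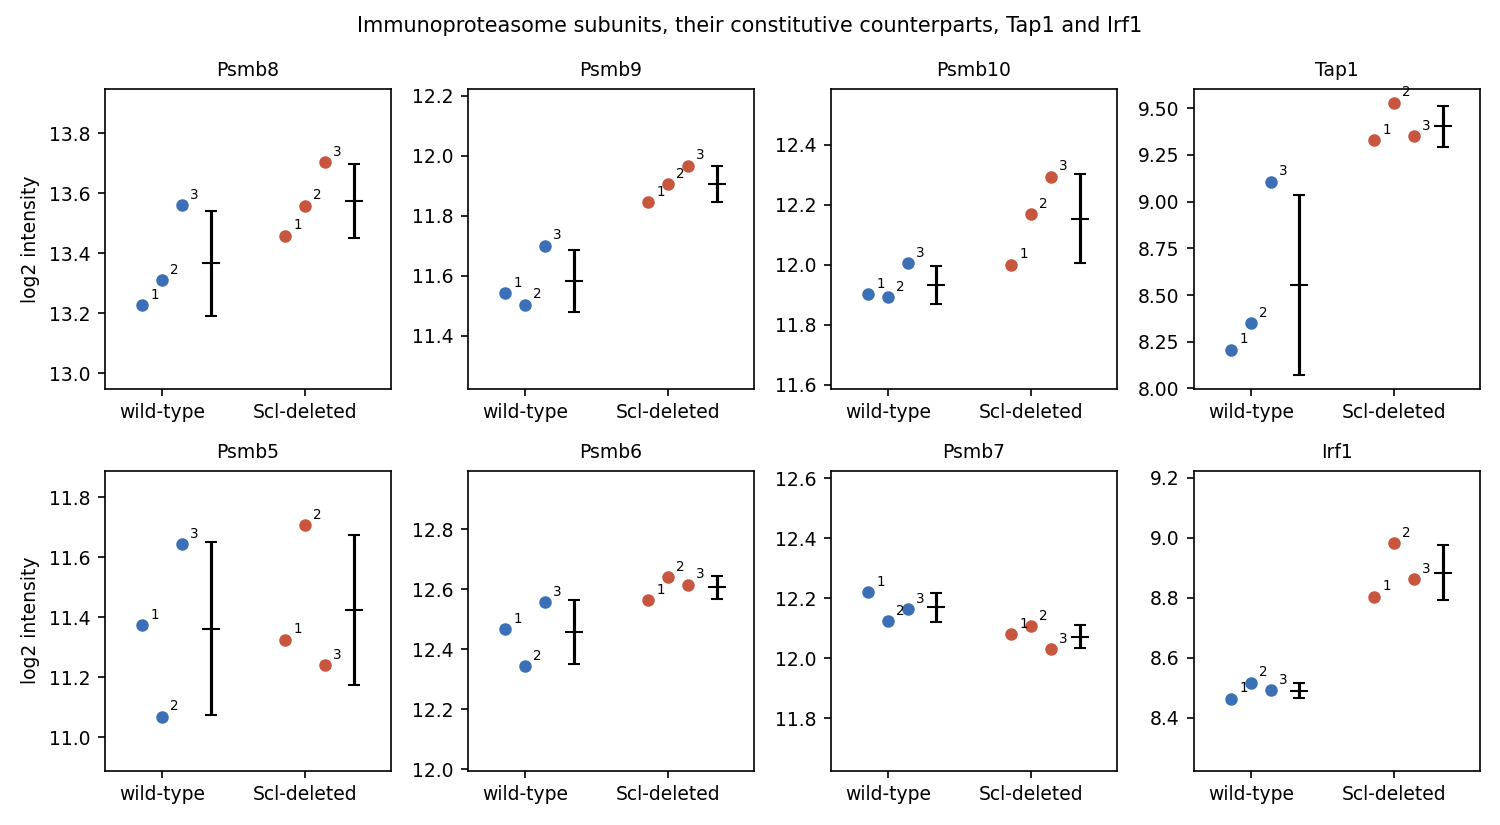
Log2 intensity (vertical axes, each panel on its own scale) on the 3 wild-type and 3 Scl-deleted arrays of the immunoproteasome genes Psmb8, Psmb9 and Psmb10, of their counterparts Psmb5, Psmb6 and Psmb7 and of Tap1 and Irf1. Points are arrays with their number, and the bar beside them is the mean ± SD, n = 3. Groups do not overlap for Psmb9, Tap1, Irf1, Psmb6 and Psmb7, where 18.0% of all kept probes do not overlap. None of the 8 passed the test over all probes. Tap1 and Irf1 are among the 4 genes with the smallest p of the 15 tested for antigen processing and interferon response. Of these 15, 8 had positive and 7 negative differences.

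The ratio of an immunoproteasome subunit to the subunit it replaces was then taken within each array. Intensities of different probes cannot be compared as amounts, so only the difference of this ratio between groups carries meaning. The log2 ratio of Psmb9 to Psmb6 was -0.92, -0.84 and -0.86 on wild-type and -0.72, -0.74 and -0.65 on Scl-deleted arrays, a difference of 0.17. That of Psmb10 to Psmb7 was -0.32, -0.23 and -0.16 against -0.08, 0.06 and 0.26, a difference of 0.32. In both pairs the groups did not overlap, and the exact two-sided permutation test gave p = 0.1, the smallest that 3 arrays against 3 allow, or 0.15 adjusted over the 3 ratios. That of Psmb8 to Psmb5 was 1.85, 2.24 and 1.92 against 2.13, 1.85 and 2.46, with overlapping groups, a difference of 0.14 and p = 0.7 in the same exact test. With other kept probes the difference of Psmb10 to Psmb7 ranged from 0.14 to 0.52, and 2 of its 6 probe pairs did not overlap. This exact test cannot give a p under 0.1 with 3 arrays in each group.

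**Figure D4:**
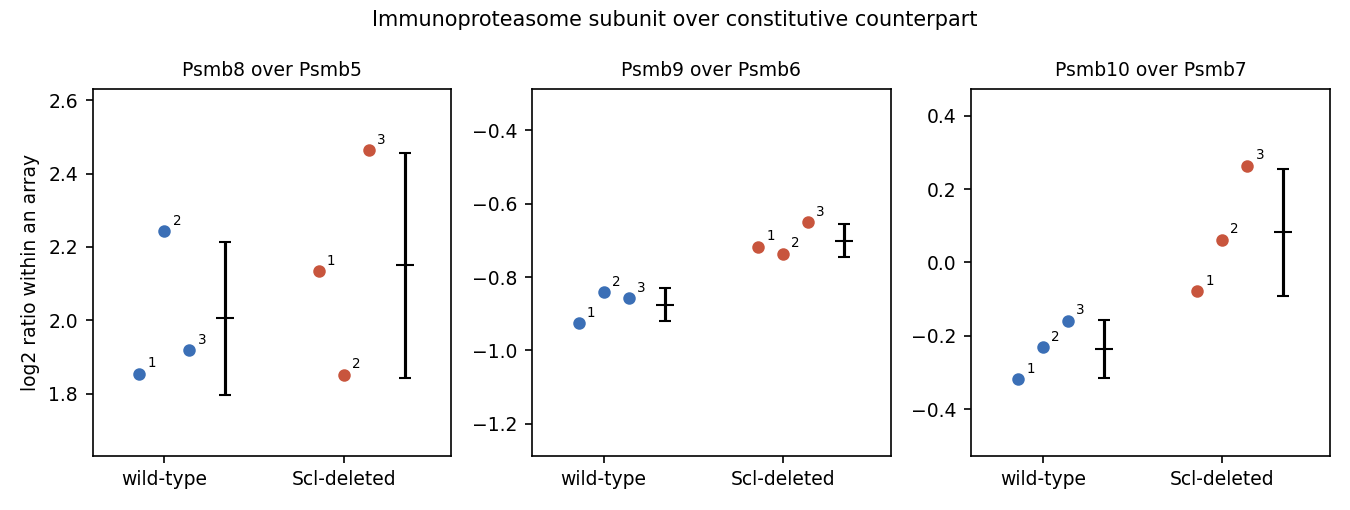
Log2 ratio within an array (vertical axes, each panel on its own scale) of Psmb8 to Psmb5, Psmb9 to Psmb6 and Psmb10 to Psmb7, by their brightest probes, on 3 wild-type and 3 Scl-deleted arrays. Points are arrays with their number and bars are the mean ± SD, n = 3, and the groups overlap only for Psmb8 to Psmb5.

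Psmb9 and Psmb8 lie in the major histocompatibility region, where the order of neighbouring genes is Psmb9, Tap1, Psmb8 and Tap2. Tap1 and Tap2 encode the transporter that carries peptides into the endoplasmic reticulum. Tap1 lay at 8.21, 8.35 and 9.11 on wild-type and at 9.33, 9.53 and 9.35 on Scl-deleted arrays. The groups did not overlap, with wild-type array 3 much closer to the Scl-deleted arrays than the other controls. Its log2 difference was 0.85 ± 0.23 (SE; limma adjusted p = 0.194). Leaving out wild-type array 3 gave 1.13 (adjusted p = 0.0139), with array weights 1.03 (adjusted p = 0.0200), and over the other settings the adjusted p ran up to 0.663. Tap2 was at -0.01.

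Of the 23 listed genes for antigen processing and interferon response 15 were tested and 0 passed in either direction (0.453% of all kept probes did), with 4 at an unadjusted p under 0.05 in limma, where 14.6% of all kept probes had one. Their median difference was 0.08, with 8 positive and 7 negative. Irf1, a transcription factor gene induced by interferon gamma that acts on Psmb9 and Tap1, lay at 8.46, 8.52 and 8.49 against 8.80, 8.98 and 8.86, without overlap and with a difference of 0.39 (adjusted p = 0.232). These values are of the brighter of its 2 kept probes, and the other is not given here. Stat2, a signal transducer of type I interferons, was dim, with a mean of 5.42 ± 0.46 (SD, n = 3) on wild-type and 6.16 ± 0.09 on Scl-deleted arrays, without overlap. Its difference was 0.74 (limma adjusted p = 0.221), or 0.98 (adjusted p = 0.0234) once wild-type array 3 was left out. In that setting 5.56% of all kept probes passed. With array weights it was 0.92 (adjusted p = 0.0311). Without wild-type array 1 or 2 the adjusted p was 0.604, and over the other settings it ran up to 0.671. The authors' normalized values gave 0.38, and signals without background correction gave 0.35. Gbp3, an interferon-induced GTPase gene, had -0.41 with overlapping groups. B2m, the light chain of class I molecules, had -0.16 with overlap, and H2-D1, a class I heavy chain, had 0.22 without overlap. Of the 15 genes 4 did not overlap, where 18.0% of all kept probes did not.

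Immunoproteasome genes are abundant in lymphocytes and myeloid cells, so markers of these cells are set beside them. Of the 5 T and NK cell markers on the array 2, Nkg7 and Klrb1c, were kept, and Cd3e, Cd3g and Cd3d were not. Their summed linear intensity ran from 5610 to 5870 on wild-type and from 5660 to 12300 on Scl-deleted arrays, with the highest value on Scl-deleted array 2. That of the 4 kept B cell markers of 5 ran from 1000 to 1040 and from 1030 to 1240, with Cd79a not kept. That of the 3 kept dendritic cell markers of 5 ran from 628 to 767 and from 563 to 743, with Cd74 and H2-Aa not kept. Neutrophil markers, 6 of 8 kept, ran from 4970 to 9240 and from 4540 to 5770, and the 3 erythroid markers on the array from 723 to 1050 and from 977 to 2450, the highest again on Scl-deleted array 2. Monocyte and macrophage markers, 1 of 5 kept (Ly6c1), ran from 193 to 951 and from 271 to 456, and mast cell and basophil markers, 2 of 6 kept, from 215 to 362 and from 202 to 257. These sums follow the brightest marker of each list, and single markers can differ from them. Without overlap between groups, the B cell markers Vpreb1 and Ebf1 had log2 differences of 0.86 and 0.13, and the erythroid marker Hba-a1 had 1.28. Also without overlap, the mast cell marker Cpa3 had 1.17 and the basophil marker Prss34 -1.87. The neutrophil marker Prtn3 had -0.68 and Klrb1c -0.30, again without overlap. The other kept markers of these lists overlapped, among them Nkg7 at 0.50, Ms4a1 at -0.06 and Epor at -0.08. Of all kept probes 18.0% did not overlap. None of the kept markers of these lists passed the limma test after adjustment. Their part in the values of the immunoproteasome genes was not tested.

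The base of the cap holds the ATPase ring that unfolds the substrate. Of its 6 genes 4 were kept, with differences from -0.28 to 0.14. Psmc4 lay at 12.07, 12.07 and 11.88 on wild-type and at 11.69, 11.78 and 11.76 on Scl-deleted arrays, and all Scl-deleted arrays were below all controls. Its difference was -0.27 ± 0.13 (SE; limma adjusted p = 0.377). Psmc3 went the other way without overlap, at 11.93, 11.93 and 11.96 against 12.08, 12.08 and 12.06, with a difference of 0.14 (adjusted p = 0.630). Psmc5 had 0.05 by its brightest probe and -0.18 by the dimmer one, and Psmc2, which is dim, had -0.28. Psmc6 was not above background, and the probe of Psmc1 was above it on wild-type array 1 alone, at 5.81, with 4.51 to 5.03 elsewhere.

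Among the other base subunits, Psmd1, the scaffold of the base, had -0.12 and -0.14 on its probes, and Psmd4, a ubiquitin receptor, had 0.17. Psmd2, the second large scaffold, had the most negative difference of all members. Its only probe was dim, at 6.51, 6.08 and 5.53 on wild-type and at 5.10, 5.13 and 5.14 on Scl-deleted arrays. It was above background on 3 of 3 wild-type arrays and on 0 of 3 Scl-deleted ones, so it was kept only through the group where it is brighter. After background correction the wild-type mean was 1.62-fold above the lowest detected signals of the Scl-deleted arrays, or 0.70 on the log2 scale. This value leaves out the spread between arrays and is no lower limit of the difference. The measured log2 difference was -0.91 (limma adjusted p = 0.168), with a 95% interval from -1.44 to -0.39. The interval thus includes differences smaller than 1.62-fold. Without background correction the measured log2 difference was -0.43 and with the authors' normalized values -0.46, both smaller in size than 0.70.

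The lid cleaves ubiquitin from the substrate and holds the cap together. Of its 8 genes 6 were kept, with differences of the brightest probes from -0.11 to 0.25. Psmd13 lay at 12.48, 12.51 and 12.79 on wild-type and at 12.81, 12.88 and 12.83 on Scl-deleted arrays, without overlap, and its difference was 0.25 ± 0.14 (SE; limma adjusted p = 0.440). Its dimmer probe had -0.11. Psmd14, the deubiquitinating enzyme of the lid, had -0.11, with 7.69 on Scl-deleted array 2 against 8.23 to 8.57 on the other 5 arrays. Psmd7, its partner, had -0.11, 0.18 and -0.44 on 3 probes. Psmd3, Psmd8 and Psmd12 had -0.05, 0.09 and -0.02, and the probes of Psmd6 and Psmd11 were not above background.

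Assembly factors and activators completed the set. Psmd5, Psmd9 and Psmd10 encode chaperones that help to build the base. Psmd5 lay at 7.57, 7.24 and 6.42 on wild-type and at 6.80, 6.37 and 6.14 on Scl-deleted arrays, with overlap through wild-type array 3, and a difference of -0.64 ± 0.30 (SE; limma adjusted p = 0.369). It depended on single arrays and on the background correction. Leaving out wild-type array 3 gave -0.97 (adjusted p = 0.0484), leaving out wild-type array 1 gave -0.39 (adjusted p = 0.799), and the authors' normalized values gave -0.38. A dim probe of Psmd9 lay at 5.34, 5.40 and 5.89 against 5.77, 6.30 and 6.22 and had 0.55 ± 0.20 (SE; limma adjusted p = 0.287). With array weights it was 0.70 (adjusted p = 0.0433), with the authors' normalized values 0.28 and without background correction 0.26. The other probes of Psmd9 had 0.19 and 0.18. The brightest probe of Psmd10, also known as gankyrin, had 0.14 without overlap, and its dimmer probes had -0.04 and -0.32. The core chaperone genes Psmg1 and Psmg3 had 0.04 and 0.17 with overlapping groups, and Psmg4 was not above background.

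Psme1 and Psme2 encode the activator that is induced by interferon gamma together with the immunoproteasome. Psme1 had 0.11 and 0.17 on its probes and Psme2 had 0.21 ± 0.25 (SE; limma adjusted p = 0.732), with 9.10, 9.03 and 9.61 on wild-type against 9.50, 9.90 and 8.98 on Scl-deleted arrays, the highest and the lowest value both in Scl-deleted cells. Psme3, the nuclear activator, lay at 11.34, 11.38 and 11.25 against 11.00, 10.98 and 11.16, without overlap, and its difference was -0.28 ± 0.13 (SE; adjusted p = 0.366). Psme4, whose product also binds the ends of the core, lay at 8.49, 8.52 and 8.91 against 9.11, 8.82 and 9.03, with overlap through wild-type array 3, and had 0.35 ± 0.16 (SE; adjusted p = 0.369). Psmf1, a regulator first described as an inhibitor, had -0.12.

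**Figure D5:**
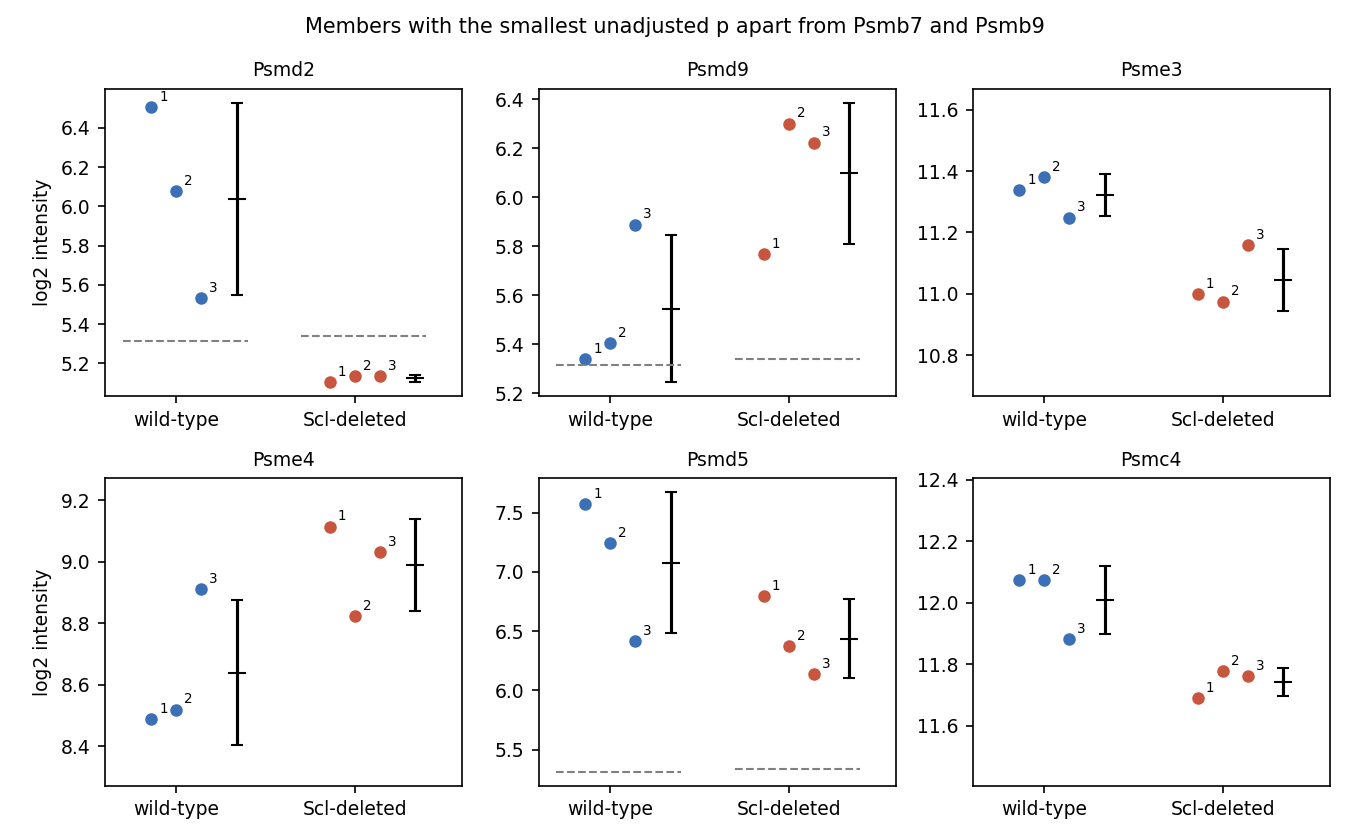
Log2 intensity (vertical axes, each panel on its own scale) on 3 wild-type and 3 Scl-deleted arrays of 6 of the 8 member probes with the smallest unadjusted p, the others being Psmb9 and Psmb7. Points are arrays with their number, bars are the mean ± SD, n = 3, and dashed lines are the group means of the lowest detected signal, drawn for dim probes. Psmd2 lies below that line on all 3 Scl-deleted arrays, and wild-type array 3 lies nearest the Scl-deleted arrays for Psmd2, Psmd9, Psme3, Psme4, Psmd5 and Psmc4.

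Set side by side by the brightest probe of each gene, the median log2 difference was -0.01 for the 12 core genes, -0.05 for the 13 cap genes, 0.22 for the 3 immunoproteasome genes and 0.12 for the 10 assembly and accessory genes, against 0.03 over all genes. The share of genes with a positive difference was 5 of 12, 5 of 13, 3 of 3 and 7 of 10. The difference between these classes was not tested. For the immunoproteasome genes this median was 0.22 in the authors' normalized values and 0.24 after median scaling. In the fit with Xist as a covariate, which rests mainly on Scl-deleted array 3, it was 0.32, and the cap median was 0.05.

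By array, the median deviation of the immunoproteasome genes from their own means was -0.20, -0.16 and -0.04 on wild-type arrays 1, 2 and 3 and -0.01, 0.12 and 0.23 on the Scl-deleted arrays. The wild-type and Scl-deleted arrays did not overlap, and wild-type array 3 lay next to Scl-deleted array 1. For the core genes the same medians lay between -0.03 and 0.09, with the highest on Scl-deleted array 2, and for the cap genes between -0.11 and 0.06, with the lowest on Scl-deleted array 2 and the highest on Scl-deleted array 3. More than 1 kept probe was available for 13 genes, and in 8 of them every probe lay on the same side of 0. The exceptions were Psmb2, Psmc5, Psmd7, Psmd10 and Psmd13.

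The remaining members were the tissue-specific and unrelated ones. Psma8, an alpha subunit gene known from testis, was detected on all 6 arrays by 2 probes, at a dim 6.69 to 7.29 by the brighter one, with a difference of 0.17. Psmb11, known from the thymus cortex, was not above background on any array. Psmc3ip and Psme3ip1 had -0.09 and -0.15. At the edge of the detection rule, Psmd2 and a dimmer probe of Psmb2 were detected on 3 arrays, and Psmc1, on 1 array, was the only probe left out that had been detected at all. The other 20 probes left out were above background on 0 arrays.

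Of 31 listed symbols for other factors of the pathway 13 were tested, and 0 passed in either direction (0.453% of all kept probes did), with 1 at an unadjusted p under 0.05 in limma, against 14.6% of all. Their median difference was -0.07, with 4 positive and 9 negative. Pomp, the maturation factor of the core, had 0.04, and Sem1, a small subunit of the lid, had -0.08. Nfe2l1, the transcription factor that raises the expression of proteasome genes when proteasome activity falls, lay at 10.24, 10.20 and 10.43 against 10.61, 10.24 and 10.49, with overlap and a difference of 0.16 (adjusted p = 0.666). Txnl1, a thioredoxin-like protein that binds the cap, lay at 8.42, 8.19 and 8.45 against 7.74, 8.04 and 8.06, without overlap, with -0.41 (adjusted p = 0.284). Nploc4, a cofactor of the unfolding enzyme encoded by Vcp, and Zfand2a, a stress-induced proteasome-binding protein, had 0.14 and -0.12 with overlapping groups.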

How the data were processed

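Biotin-labelled RNA of 6 samples was read on Illumina mouse bead arrays, per the labels. The deposited table without normalization gives log2 signals, and beside each a detection score. The deposited score rises with the signal (lowest rank correlation 0.997), so its difference from 1 was taken as detection p. In the other deposited table the authors' log2 values differ by at most 0.0865 from the first table after quantile normalization. The submitters' processing notes name limma, and no source used here names the scanner software.

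Linear signals went through limma's neqc (limma 3.58.1, R 4.3.3; normal-exponential background correction, offset 16, quantile normalization), which widens differences of dim probes and removes any shift shared by most genes. The filter kept probes whose detection p was under 0.05 on 3 or more arrays. Between 15183 and 16338 probes per array were detected. The platform annotation gave 1 gene symbol for 29976 probes, several for 10 and none for 16646.

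Groups, taken from the sample titles, were compared over all 16122 kept probes by a two-sided moderated test in limma (lmFit, eBayes). P-values were adjusted by Benjamini-Hochberg over all kept probes, with a threshold of 0.05. This limma fit gave each adjusted p of a gene printed without another setting. Those printed with another setting came from the limma fit of that setting. The procedure was also run on simulated data with independent noise for each probe and array. That simulation held no effect shared by the probes of an array, so it does not cover arrays that stand apart. The brightest kept probe stands for a gene where 1 is used. Ratios were compared with exact permutation tests. The members and lists were chosen with earlier results of these data known. Genes described on every array were those a test or alternative called, Psmb5 to Psmb10, the 8 members with the smallest p and a few that illustrate each class, chosen after their values were seen. Of the other lists the 4 genes with the smallest p were named by rule, and B2m, H2-D1, Tap2, Pomp and Sem1 after their values were seen. Alternatives were the authors' values, no background correction, median scaling, no detection filter, a stricter filter (under 0.01 on all 6 arrays), a trend and robust prior, array weights, a replicate block, Xist as a covariate, 1 probe per gene, a threshold of 0.1 and leaving out each array. The labels and files gave no batch.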

Additional observations from a re-analysis of the deposited data

How the results depend on the processing

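In 15 alternatives 0 member probes passed the threshold, of 59 tested except for 53 with the stricter filter, 41 with 1 probe per gene and 80 without the filter. With array weights 3 passed (Psmd2, Psmd9 and Psmd5) and without wild-type array 3 there were 2 (Psmd2 and Psmd5), Psmd2 in both having been kept only through the wild-type arrays. The differences without background correction and with median scaling, the authors' values, the trend and robust prior and the replicate block kept the sign of all 59, while 12 changed sign with Xist as a covariate, 10 without Scl-deleted array 2, 8 without wild-type array 2, 2 with array weights and 1 to 4 on leaving out another array. The count of all probes called, 73, was 43 with median scaling, 4 without the detection filter, 45 with the stricter filter, 136 with the trend and robust prior, 1130 with array weights, 3 with Xist as a covariate, 110 with 1 probe per gene and 178 at a threshold of 0.1. With 1 array left out it ran from 4 to 896, and the count of members called from 0 to 2. With the replicate number as a block, 7 probes passed in all and 0 members, Psmb9 had an adjusted p of 0.432 and Psmd2 of 0.190 in limma, and no call among the members changed. The blocked exact permutation test gave the Psmb9 to Psmb6 and Psmb10 to Psmb7 ratios an adjusted p of 0.375 each. Same-numbered arrays did not deviate together (correlations 0.13, -0.29 and -0.18). With deviations taken from the mean of only 3 arrays per group, this check cannot exclude that the numbers pair the samples. The sample titles do not tell.

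The median over the members was 0.0053 without the filter (over all 80 probes), -0.0076 with array weights and -0.0023 with Xist as a covariate, and ran from -0.0052 to 0.056 with 1 array left out. With Xist as a covariate the cap median was 0.052 and that of assembly and accessory genes 0.034. With 1 array left out the cap median ran from -0.084 to 0.034, the latter without Scl-deleted array 2, and that of assembly and accessory genes from 0.015 to 0.13, with 0.015 without Scl-deleted array 2 and 0.068 without wild-type array 2. The core median ran from -0.05 to 0.01 and the immunoproteasome median from 0.15 to 0.30. Psmb5 changed sign with Xist as a covariate (-0.15), on leaving out wild-type array 2 (-0.083) or Scl-deleted array 2 (-0.079), and ran up to 0.20. The ratio of Psmb8 to Psmb5 was -0.013 without Scl-deleted array 3 and ran up to 0.29 with 1 array left out, that of Psmb9 to Psmb6 from 0.15 to 0.19 and that of Psmb10 to Psmb7 from 0.23 to 0.40. The cause of these changes was not tested. Signal near background limits the dim probes, Psmd2, Psmd5 and Psmd9 among them.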
